A study of Mus musculus with 16 samples.

Results

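The cytosolic ribosomal protein genes of the mouse were followed in RAW264.7 cells, an established macrophage-like line, under an inflammatory stimulus and under cordycepin (3′-deoxyadenosine), a nucleoside that inhibits polyadenylation. Members were the genes whose array probes carry a ribosomal protein symbol (Rpl or Rps with a number, Rplp0, Rplp1, Rplp2 or Rpsa) and a RefSeq messenger RNA accession. There were 82 such genes, represented by 170 probes, among 34779 genes and other named targets on the array. For 79 of them, some condition had the probe well above background on each of its 4 arrays, and these were tested with 15877 genes in all. The remaining 3, Rpl10l, Rpl39l and Rpl3l, are paralogues of more widely expressed ribosomal proteins. Their brightest probes were well above background on 1, 0 and 1 of the 16 arrays, so they were not well above background here and have no values below.

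The 4 conditions had 4 replicates each, and a replicate number stands for a culture day shared by the conditions. DMSO cells received the solvent for 120 min, and cordycepin cells received 20 µM cordycepin for 120 min. LPS+DMSO cells were given solvent for 60 min and then 1 µg/ml lipopolysaccharide (LPS) for another 60 min, and LPS+cordycepin cells were given cordycepin before and during the same LPS exposure. All cells came from a single line that carries no engineered change in the labels, and 10 of 11 macrophage markers on the array, Adgre1, Csf1r and Cd68 among them, were well above background on all 16 arrays. Markers of other lineages were mixed. Well above background on all 16 arrays were 3 of 5 T cell markers (Cd3e, Cd4 and Lck) and 2 of 5 neutrophil markers (Elane and S100a8), and none of the B cell, fibroblast, epithelial and erythroid markers, of which Cd79a reached 12 arrays. Of these genes, Mpo was 2.02 ± 0.20 (SE) higher on the log2 scale with cordycepin and 3.97 ± 0.20 higher with cordycepin in LPS-treated cells (limma, adjusted p = 2.6e-06 and 2.29e-09), and Cd79a was 2.64 ± 0.31 higher in the latter comparison (adjusted p = 1.27e-05). The part of these 2 genes in any member's values was not tested.

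Ribosomal proteins build the small (Rps) and large (Rpl) subunits on a scaffold of ribosomal RNA. Their mRNAs are among the most abundant and most stable in a growing cell and are made from strong, constantly active promoters. Transcription of these genes usually starts at a C followed by a run of pyrimidines, the terminal oligopyrimidine or TOP motif, through which the mTOR pathway sets how well the mRNA is translated. Because a long-lived mRNA changes slowly when its synthesis or 3′ end formation is altered, several members serve as reference genes. The comparisons therefore ask whether this class of mRNA moves within 60 min of LPS or 120 min of cordycepin, when short-lived mRNAs do.

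Start-site sequences of 4 well-known members and 2 paralogues are shown as examples of a pyrimidine run at the listed start and of starts without one. Each stretch runs from 5 bases before the RefSeq start to 20 bases from it, on GRCm38.p6, with the uninterrupted pyrimidine run from the start base in capitals where that base is a C.
Rpl28 (chr7:4792960-4792984, + strand): tgtctCTCTTTCCgtctccggccgc
Rpl15 (chr14:18270967-18270991, - strand): gccttCTTCCTTTCCTCTggcggca
Rps6 (chr4:86857348-86857372, - strand): cgggcCTCTTTTTCgtgacgcctcc
Rps15a (chr7:118116128-118116152, - strand): gccatCTTCCCTCgccggtgagtga
Rpl7l1 (chr17:46782637-46782661, - strand): gcaagCgcagtagctgaagcaccgg
Rpl22l1 (chr3:28805503-28805527, + strand): agcccgttctcttcccacggctgca
RefSeq start windows were found for 62 of the 82 members (74 windows of 300 bases). The examples were chosen for their runs, and Rpl22, the parent of Rpl22l1, has no run at its listed starts. Exactly at the listed start, 13 of the 74 (17.6%) had a C followed by enough pyrimidines for a run of at least 5, against 823 of 32851 (2.5%) windows of all genes. The letters CCGGAAG, on either strand, were in 26 member windows (35.1%) and in 8.9% of all windows, and TATAAA was in 9.5% and 13.6%. The listed starts can be off by some bases, which was not tested, so these shares describe the listed starts only. Rpl22l1, for example, has a pyrimidine run just after its listed start.

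No member passed the test in any comparison. In LPS+DMSO against DMSO cells, 0 of 79 members had an adjusted p under 0.05 (limma with Benjamini-Hochberg adjustment over all genes), where 14.9% of all tested genes did. The count was also 0 of 79 for cordycepin against DMSO (15.8% of all genes), for LPS+cordycepin against LPS+DMSO (19.2%), for LPS+cordycepin against cordycepin (8.01%) and for the interaction, the difference between the LPS responses with and without cordycepin (0.548%). Most members gave high signals, and genes of high signal were called less often. Of the 1588 brightest tested genes, 43 were higher and 11 lower with LPS, and 22 and 10 with cordycepin. In LPS-treated cells 15 were higher and 52 lower with cordycepin. With LPS in cordycepin-treated cells the counts were 17 and 5, and for the interaction 0 and 2. Without adjustment, no member had a p under 0.05 in these 5 comparisons either, where 26.3%, 27.5%, 28.1%, 17.6% and 7.75% of all genes did. The methods' t-test left 0 members in the 4 pairwise comparisons after adjustment. Before adjustment it picked Rpl7l1 as higher with LPS, Rpl7l1 as lower with cordycepin in LPS-treated cells and Rpl22l1 as lower with LPS in cordycepin-treated cells, where it picked 23.2%, 27.6% and 19.2% of all genes, and no member for cordycepin against DMSO (25.2% of all genes).

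The members' changes were narrow in size. With LPS their median log2 change was -0.02, with a lower and an upper quartile of -0.06 and 0.01, while all genes had a median of -0.04. With cordycepin the median was 0.02 (quartiles -0.02 and 0.05), against 0.03 over all genes. In LPS-treated cells the median with cordycepin was 0.00 (quartiles -0.03 and 0.03), and with LPS in cordycepin-treated cells it was -0.04 (quartiles -0.08 and -0.02). The median standard error of a member's change was 0.11, so a 95% confidence interval reached about 0.23 to either side. For 78 of the 79 members the whole interval lay within 0.5 of zero in each of the comparisons of LPS with solvent, cordycepin with solvent, and cordycepin with solvent under LPS, and for 77 of 79 in LPS+cordycepin against cordycepin. All 79 intervals lay within 1 of zero, a 2-fold change, in all 5 comparisons.

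**Figure D1:**
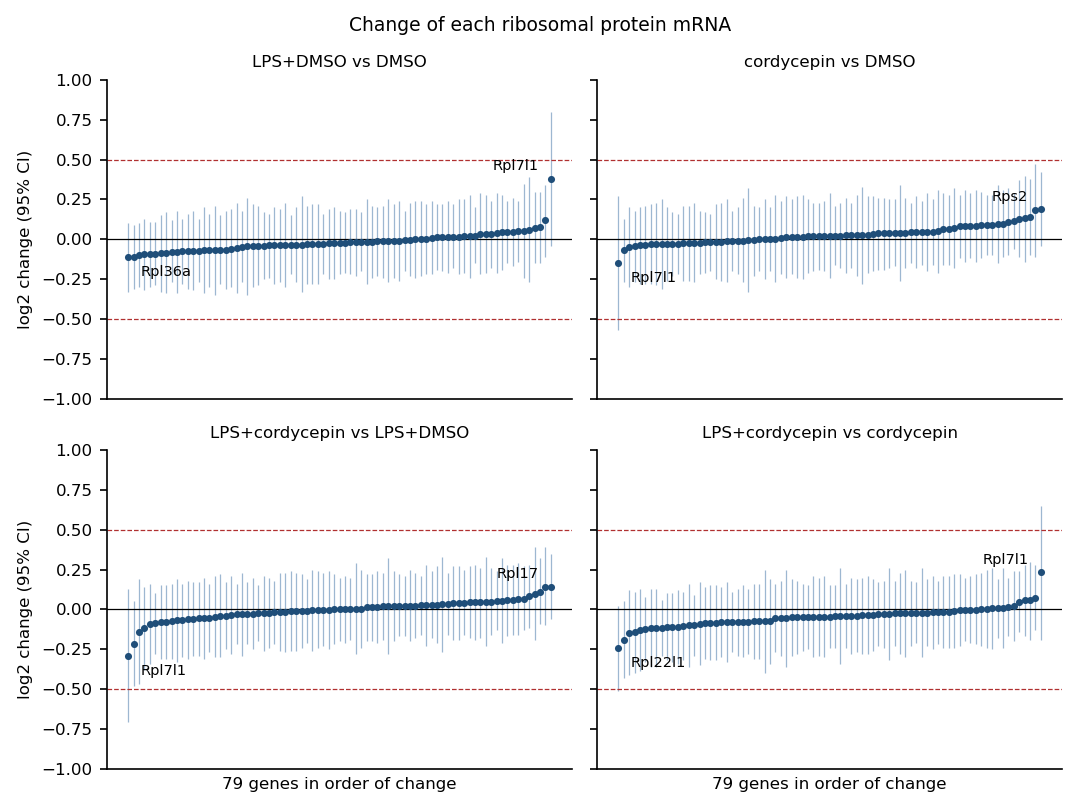
Log2 change of each of the 79 tested ribosomal protein mRNAs in 4 comparisons, ordered by size, with 95% confidence intervals from limma as bars and dashed lines at 0.5 and -0.5. Nearly all points lie close to zero, and the interval of Rpl7l1 is the one that leaves the dashed lines in each panel, joined by Rpl22l1 in the last.

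The 1588 brightest genes, from which the members were not removed, covered a wider range. The changes of that set with LPS ran from -0.78 to 4.18, where those of the members ran from -0.11 to 0.38. The 0.38 is that of Rpl7l1, whose condition means (9.87 to 10.39) were the lowest of any tested member. The sets differ in size, which affects such end values. By quartiles, the changes with LPS ran from -0.06 to 0.07 in the bright set and from -0.06 to 0.01 in the members. With cordycepin the median of the bright set was 0.07, above the 0.02 of the members. The median standard error was 0.11 in both sets.

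**Figure D2:**
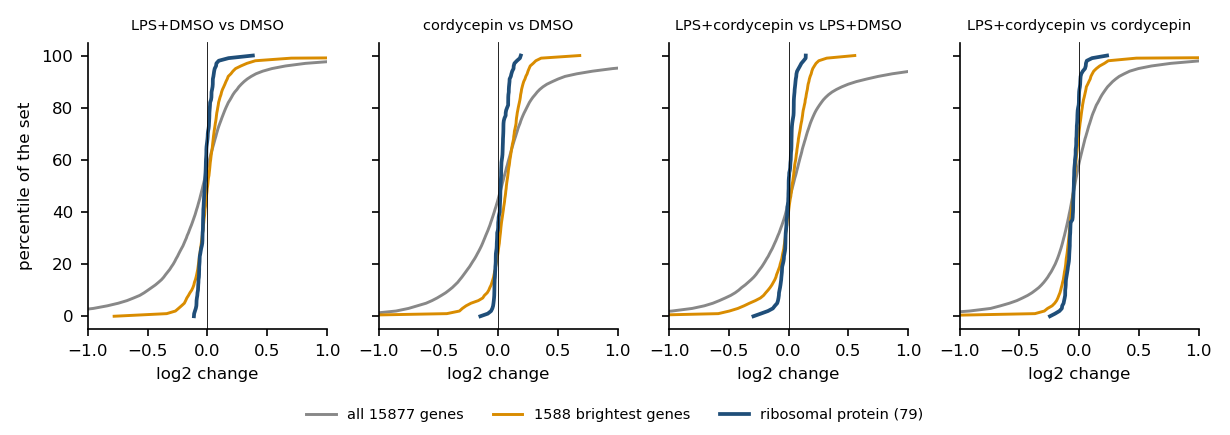
Cumulative distribution of log2 changes (x axis) as percentiles of each set (y axis) for the 79 ribosomal protein genes, the 1588 brightest genes and all 15877 tested genes. The x axis stops at -1 and 1; the ribosomal protein curve is the steepest in all 4 panels.

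The members shared another movement, from array to array. Each member's level was expressed as its deviation from its own mean over the 16 arrays, on the log2 scale after scaling each array to its 75th percentile. The median deviation of the 79 members ran from -0.15 (DMSO replicate 3 and LPS+DMSO replicate 4) to 0.17 (DMSO replicate 2), with an SD of 0.11 over arrays. In DMSO replicate 3 only 5 of 79 members were above their own mean and in DMSO replicate 2 there were 71. Among cordycepin arrays the counts were 3, 75, 21 and 74 of 79, among LPS+DMSO arrays 33, 47, 66 and 4, and among LPS+cordycepin arrays 74, 17, 40 and 22. High and low arrays occurred in every condition.

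**Figure D3:**
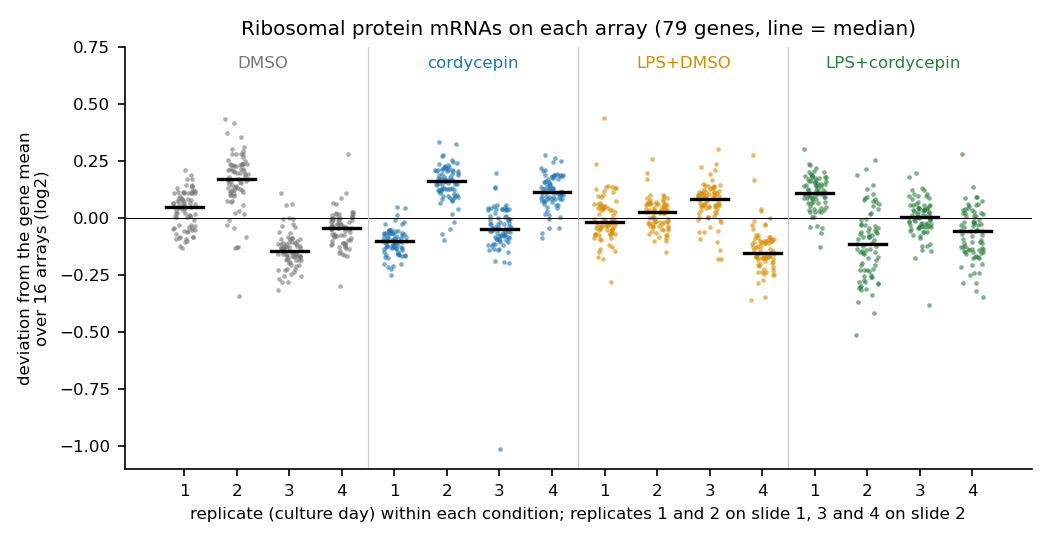
Deviation of the 79 ribosomal protein mRNAs from each gene's mean over 16 arrays (log2, y axis) on every array (x axis, by condition and culture day); points are genes and lines are medians. The family rises and falls together, in DMSO from -0.15 to 0.17, and the conditions overlap.

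This shared movement depended on the scaling. After quantile normalization the family's median deviation ran from -0.08 to 0.09 with an SD of 0.04, and the median standard error of a member's change fell to 0.08. After scaling to the Agilent spike-in RNAs the SD was 0.38 and the deviation ran from -0.58 to 0.42. By culture day, the family's median change with LPS was -0.05, -0.15, 0.21 and -0.09 (mean ± SD -0.02 ± 0.16, n = 4 days), and with cordycepin it was -0.15, -0.02, 0.10 and 0.17 (0.03 ± 0.14). In LPS-treated cells the change with cordycepin was 0.11, -0.13, -0.09 and 0.09 (-0.01 ± 0.12). Within the slides, days 1 and 2 on slide 1 and days 3 and 4 on slide 2, the median was -0.09 and 0.05 for LPS, -0.08 and 0.13 for cordycepin, and -0.02 and 0.00 for cordycepin with LPS. The sign thus differed between slides for LPS and for cordycepin, and no member was called within either slide.

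The ribosomal stalk recruits the GTP-hydrolysing translation factors to the large subunit. It is made of Rplp0, the base, and the acidic proteins Rplp1 and Rplp2. Rplp0 had log2 signals of 18.52, 18.59, 18.17 and 18.28 in DMSO, 18.24, 18.56, 18.29 and 18.57 with cordycepin, 18.33, 18.47, 18.44 and 18.29 with LPS+DMSO, and 18.57, 18.10, 18.44 and 18.25 with LPS+cordycepin. The 4 conditions overlapped, with means between 18.34 and 18.41. Rplp1 and Rplp2 differed between conditions by at most 0.05 in the 4 pairwise comparisons, and the stalk's lowest and highest changes were -0.07 and 0.05.

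Rpl5 and Rpl11 form a complex with 5S ribosomal RNA and, like Rpl23, bind Mdm2, the ligase that degrades p53, when ribosome assembly is disturbed. Rpl11 changed by 0.09 with cordycepin, 0.02 with cordycepin under LPS, and -0.10 with LPS in cordycepin-treated cells. Rpl5 and Rpl23 stayed between -0.10 and 0.02 in the 4 pairwise comparisons. Rps6, the S6 kinase substrate of the small subunit, changed by 0.07 with LPS and 0.09 with cordycepin, and Rps3, Rps19, Rpsa, Rps27a, Rpl10, Rpl38 and Rpl41 lay between -0.09 and 0.06. None of these differences passed the test.

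None of 5 members in use as reference genes passed the test. Their median change was 0.07 with cordycepin and -0.08 with LPS in cordycepin-treated cells, where all members had 0.02 and -0.04. Rpl28 had log2 signals of 16.85, 17.01, 16.63 and 16.81 in DMSO, 16.72, 17.08, 16.88 and 16.99 with cordycepin, 16.84, 16.98, 16.93 and 16.73 with LPS+DMSO, and 16.95, 16.97, 16.88 and 16.86 with LPS+cordycepin. All 4 conditions overlapped. Its changes were 0.05 with LPS, 0.10 with cordycepin and 0.05 with cordycepin under LPS. Rpl13a, Rpl32 and Rps18, with Rplp0 and Rpl28, lay between -0.03 and 0.05 with LPS and between 0.02 and 0.11 with cordycepin. Among other common reference genes, not all of which are reported here, Tuba1a, an alpha tubulin, was higher with LPS (0.60 ± 0.18, adjusted p = 0.0356 by limma). Tbp, the TATA-binding protein, was lower with cordycepin (-0.57 ± 0.11, adjusted p = 0.00132 by limma) and with cordycepin under LPS (-0.55 ± 0.11, adjusted p = 0.00123). Gapdh differed by 0.04 with LPS and 0.01 with cordycepin, and Actb by 0.30 with LPS (adjusted p = 0.0569).

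The paralogue Rpl7l1, a relative of Rpl7 with a part in ribosome assembly, had the largest rise of any member with LPS and the largest fall with cordycepin under LPS, though neither passed the test. Its log2 signals were 10.04, 9.75, 10.09 and 10.16 in DMSO and 10.53, 10.35, 10.33 and 10.37 with LPS+DMSO. These 2 groups did not overlap. The change was 0.38 ± 0.20 (SE; 95% interval -0.04 to 0.80), higher on 4 of 4 days, with an adjusted p of 0.244 from limma. With LPS+cordycepin the values were 10.12, 10.28, 10.15 and 9.85, all below those of LPS+DMSO, a change of -0.29 (interval -0.71 to 0.13, adjusted p = 0.381 by limma). Cordycepin alone gave 10.14, 10.19, 9.08 and 10.05, in which replicate 3 stood apart. Without that array, which enters the LPS comparison only through the pooled variance, the LPS change of 0.38 had an adjusted p of 0.0311, the single call of a member among all fits that left out an array or a day.

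Rpl22l1, a paralogue of Rpl22, had log2 signals of 15.54, 15.81, 15.51 and 15.77 with cordycepin and 15.53, 15.47, 15.42 and 15.25 with LPS+cordycepin. The groups overlapped narrowly, between 15.51 and 15.53. The change was -0.24 ± 0.12, lower on 4 of 4 days (95% interval -0.51 to 0.02, adjusted p = 0.338 by limma). Against LPS+DMSO (15.72, 15.67, 15.72 and 15.42) the change was -0.22, also lower on 4 of 4 days. Its parent Rpl22 changed by -0.14 and -0.05 in the same comparisons. Rps27l, a p53-responsive paralogue of Rps27, changed by 0.18 with cordycepin (interval -0.11 to 0.47), higher on 4 of 4 days, and the probe named for Rps27 by -0.01. The array places the Rps27 probes on chromosome 9, which also carries Rps27l, and not on chromosome 3, where RefSeq has Rps27. What the Rps27 probe measures is therefore uncertain.

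The largest rise with cordycepin was that of Rps2, a small subunit protein at the mRNA entry. Its log2 signals were 17.13, 17.13, 16.90 and 17.22 in DMSO and 17.16, 17.42, 17.22 and 17.33 with cordycepin. The groups overlapped, and the change was 0.19 ± 0.11 (interval -0.04 to 0.42, adjusted p = 0.27 by limma). The lowest change with LPS was that of Rpl36a (-0.11), and the highest with cordycepin under LPS that of Rpl17 (0.14). Rpl17 also had the highest interaction (0.17) and Rpl22l1 the lowest (-0.21). Large and small subunit members did not part: with LPS their medians were -0.02 (47 genes) and -0.04 (32 genes), and with cordycepin both were 0.02.

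Ribosomal proteins outside the naming rule gave like values. Fau, whose product is processed to Rps30, and Rack1, the small subunit's kinase scaffold, lay between -0.08 and 0.13 in the 4 pairwise comparisons, with none past the threshold. Of 25 tested translation factors and other TOP mRNAs, Eef1g was lower with LPS (-0.34) and Cct4 (0.31) and Eif3l (0.30) were higher with cordycepin, and the rest passed in no pairwise comparison. Of 78 mitochondrial ribosomal proteins, which are encoded separately and serve the organelle's own ribosome, 2 were lower with LPS, 4 higher with cordycepin, and 1 higher and 2 lower with cordycepin under LPS. Over all 15877 tested genes, 1546 were lower with LPS and 1282 higher with cordycepin. Under LPS, 1715 were higher and 1327 lower with cordycepin. The counts of these lists are therefore not read as responses of their own.

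Several genes that assemble ribosomes were called. Of 64 tested ribosome biogenesis factors, 11 were higher and 0 lower with LPS, with a median of 0.18, where 5.11% of all genes were higher. Rrs1, which brings the 5S particle into the large subunit precursor, was higher by 0.87 ± 0.09 with LPS (adjusted p = 3.44e-06 by limma) and by 0.90 ± 0.09 with LPS in cordycepin-treated cells. Cordycepin gave 0 higher and 6 lower of 64, where 7.73% of all genes were lower, and under LPS 0 higher and 13 lower (8.36% of all genes). Riok2, a kinase of late small subunit maturation, was lower by 0.95 on the log2 scale with cordycepin (-0.95 ± 0.09, adjusted p = 3.2e-06) and by 0.87 under LPS (-0.87 ± 0.09). Ddx21, a nucleolar RNA helicase, was higher with LPS (0.45) and lower with cordycepin under LPS (-0.59). Of 24 short-lived immediate early mRNAs, such as Fos (4.67 ± 0.15 with LPS), 21 were higher with LPS, and 7 were lower with cordycepin and 12 with cordycepin under LPS. The difference between these lists and the members was not tested.

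All this rested on each gene's brightest probe. Of the 170 member probes, 21 gave a mean signal at least 3 log2 units below the brightest probe of their gene, and 16 of those lie between 100 and 10000 bases to its 3′ side on the same strand of mm9, the build of the array files. They belong to 15 genes, and 15 of the 16 probes were tested. Probes of different sequence cannot be compared in level, and the brightness served only to choose them, after their values were seen. The hexamers AATAAA and ATTAAA, which can mark the site where the 3′ end of an mRNA is cut and polyadenylated, were in 53 of 170 member probes, 26 of the 82 brightest and 4 of the 16 dim 3′ probes themselves. The probes were not placed against annotated 3′ ends, so whether a hexamer is used, or a 3′ probe lies past the mRNA's end, was not tested. Stretches of 30 bases from the brightest probes of 4 genes were picked because they hold the hexamer, shown in capitals.
Rpl6 (probe at chr5:121658915-121658974, + strand): attgttaacctaATTAAAcagcttcatagg
Rpl14 (probe at chr9:120483487-120483546, + strand): gctacacagaatAATAAAggttctttttga
Rpl23 (probe at chr11:97639350-97639409, - strand): taaaatatattcATTAAAgtctctgctctg
Rpsa (probe at chr9:120040617-120040676, + strand): agatggaaggaaAATAAAgttgctaaaagc
The 3′ probes of these genes lie 181, 143, 374 and 291 bases further on. The opening 30 bases of the 4 probes that passed the test with cordycepin are given for identification.
Rps15a (probe at chr7:125248322-125248381, - strand, 4263 bases 3′): gtgagtcagcagaaagtatagatagcaaag
Rpl6 (probe at chr5:121659155-121659214, + strand, 181 bases 3′): ttagaggcacatacactgccatggctgcct
Rpl15 (probe at chr14:19100588-19100647, - strand, 1010 bases 3′): gacatttcacaaaggccatacttaaccaca
Rpl22 (probe at chr4:151708012-151708071, + strand, 1438 bases 3′): gctgtaaacaacattaaccctgggttgatt

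The 3′ probes gave other counts than the brightest ones when every probe was tested on its own (21577 probes). Of the 15, 13 were well above background on all 16 arrays. Among these 13, the probes of Rpl6, Rpl15 and Rpl22 were higher with cordycepin, and these and that of Rps6 with cordycepin under LPS, that is 3 and 4 of 13, where 6.01% and 8.11% of all probes so detected were higher. The remaining 2, of Rps15a and Rpl21, entered the test only through cordycepin conditions in which they were high. With them the counts were 4 and 6 of 15 (9.54% and 12.1% of all probes), part of which the filter on dim probes set. Of the 79 brightest and the 66 other bright member probes, 0 passed in either comparison. The median change of the 13 was 0.25 with cordycepin, all 13 above zero, and 0.22 under LPS, 10 of 13 above zero, against 0.03 over all probes so detected in both comparisons. The 4 dim probes on the 5′ side changed by 0.05 to 0.19 with cordycepin and by -0.09 to 0.17 under LPS, and none passed. With the culture day as a block, 7 of 15 were higher with cordycepin and 6 under LPS. These 15 include the probes of Rps15a and Rpl21 that the filter let in, and no share of all probes is given for that fit. The counts with the block are therefore not read as a response.

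The 3′ probe of Rps15a, a protein of the small subunit, had log2 signals of 5.51, 5.35, 5.23 and 4.56 in DMSO and 7.37, 6.96, 7.93 and 7.59 with cordycepin. With LPS+DMSO they were 5.55, 5.93, 5.24 and 4.98, and with LPS+cordycepin 7.81, 7.94, 8.33 and 7.93. Every cordycepin array was above every array without it. The probe was well above background on 1 of 4 DMSO and 2 of 4 LPS+DMSO arrays, and on all arrays of both cordycepin conditions, so it passed the filter only where it was high and the size of its change is uncertain. The measured change was 2.30 ± 0.24 and, under LPS, 2.58 ± 0.24. In a fit with no filter on dim probes, the changes had adjusted p = 7.05e-05 and 1.75e-05 by limma. On the gene's brightest probe the 4 conditions overlapped, with means of 17.02 in DMSO, 17.04 with cordycepin, 17.02 with LPS+DMSO and 16.96 with LPS+cordycepin. Within slides 1 and 2 the change of the 3′ probe was 1.73 and 2.86 with cordycepin and 2.14 and 3.02 under LPS. Its size depended on the background treatment, being 0.85 and 1.23 after normexp correction and 1.38 and 1.74 in the authors' values, past the threshold each time.

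The 3′ probe of Rpl6, a large subunit protein, had log2 signals of 6.89, 6.94, 6.73 and 7.13 in DMSO and 7.15, 7.25, 7.45 and 7.47 with cordycepin. Under LPS they were 6.93, 6.75, 6.96 and 6.96 without and 7.44, 7.36, 7.84 and 7.87 with cordycepin. The cordycepin arrays lay above their controls in both comparisons. The change was 0.41 ± 0.13 (adjusted p = 0.0433 by limma) and 0.73 ± 0.13 under LPS (adjusted p = 6.32e-04), higher on 4 of 4 days in both. Leaving out an array or a day ended the call with cordycepin alone in 13 of 20 fits, with a change of 0.30 to 0.48, and the call under LPS was kept in all 20, with 0.64 to 0.82. The brightest Rpl6 probe had means of 17.81, 17.81, 17.79 and 17.77 in DMSO, cordycepin, LPS+DMSO and LPS+cordycepin.

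**Figure D4:**
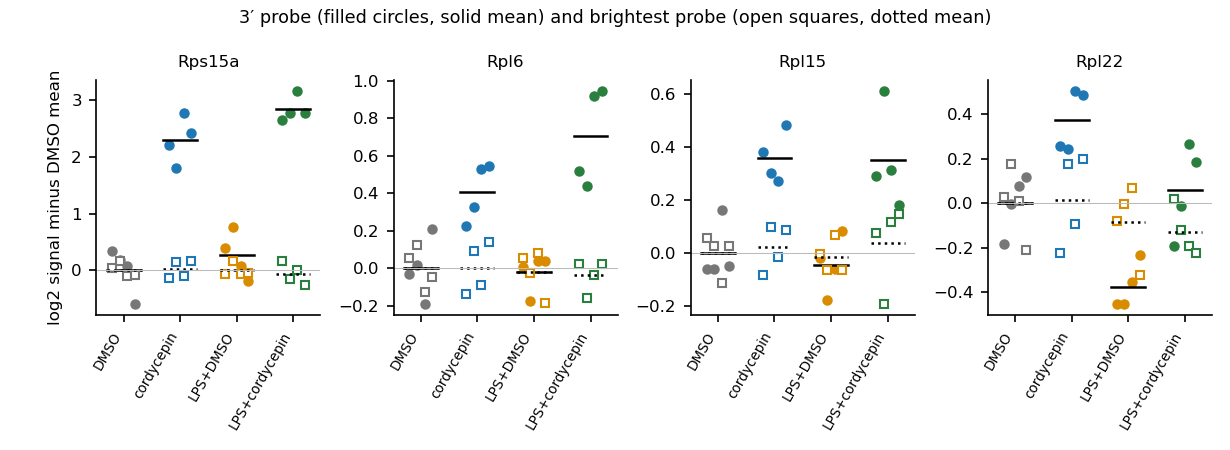
Log2 signal relative to the mean of the DMSO arrays (y axis, a scale of its own in each panel) for the 3′ probe (filled circles) and the brightest probe (open squares) of Rps15a, Rpl6, Rpl15 and Rpl22 on the 4 arrays of each condition; lines are means. With cordycepin alone the 3′ probes are higher than in DMSO, by 2.30 for Rps15a and by 0.36 to 0.41 for the other genes. Against LPS+DMSO, those with LPS+cordycepin are higher by 2.58, 0.73, 0.40 and 0.43 in panel order. For Rpl22 the log2 means were 11.75 in DMSO, 11.37 with LPS+DMSO and 11.81 with LPS+cordycepin. The brightest probes stay near zero.

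The other calls were smaller. The 3′ probe of Rpl15, a large subunit protein, changed by 0.36 ± 0.10 with cordycepin and 0.40 ± 0.10 under LPS (adjusted p = 0.0216 and 0.00968 by limma). That of Rpl22, an RNA-binding large subunit protein, changed by 0.37 ± 0.11 and 0.43 ± 0.11 (adjusted p = 0.0356 and 0.012 by limma) and was lower with LPS itself (-0.37 ± 0.11, adjusted p = 0.0393), where 9.36% of all probes were lower. The array lists this 3′ probe and the brightest Rpl22 probe under different RefSeq mRNAs, so they need not lie on the same transcript. One of the 2 Rpl21 probes, 1686 bases 3′, was well above background on 2 DMSO, 4 cordycepin, 2 LPS+DMSO and 3 LPS+cordycepin arrays, and so was tested only through the cordycepin condition. Its change of 0.96 ± 0.31 under LPS did not pass without the filter (adjusted p = 0.131 by limma). The Rps6 probe, 626 bases 3′, was higher by 0.23 ± 0.07 under LPS (adjusted p = 0.0391) and by 0.22 without it (adjusted p = 0.0554). These smaller calls were not stable. Over the alternatives and left-out arrays, the cordycepin call was lost in 13 of 36 fits for Rpl15, 15 of 36 for Rpl22 and 24 of 36 for Rpl6, and the call under LPS in 10, 8 and 2 of 36. For Rpl21 and Rps6 it was lost in 18 of 35 and 19 of 36. The changes kept their sign in all of these fits. No interaction passed for these 6 probes. Thus the response was not shown to differ with LPS.

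The remaining 9 tested 3′ probes passed in neither comparison. They belong to Rpl14, Rpl17, Rpl21, Rpl23, Rpl27a, Rpl31, Rpl39, Rps25 and Rpsa, and changed by 0.14 (Rpl39) to 0.35 (Rpl27a) with cordycepin. Under LPS they changed by -0.07 (Rps25) to 0.27 (Rpl31).

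**Figure D5:**
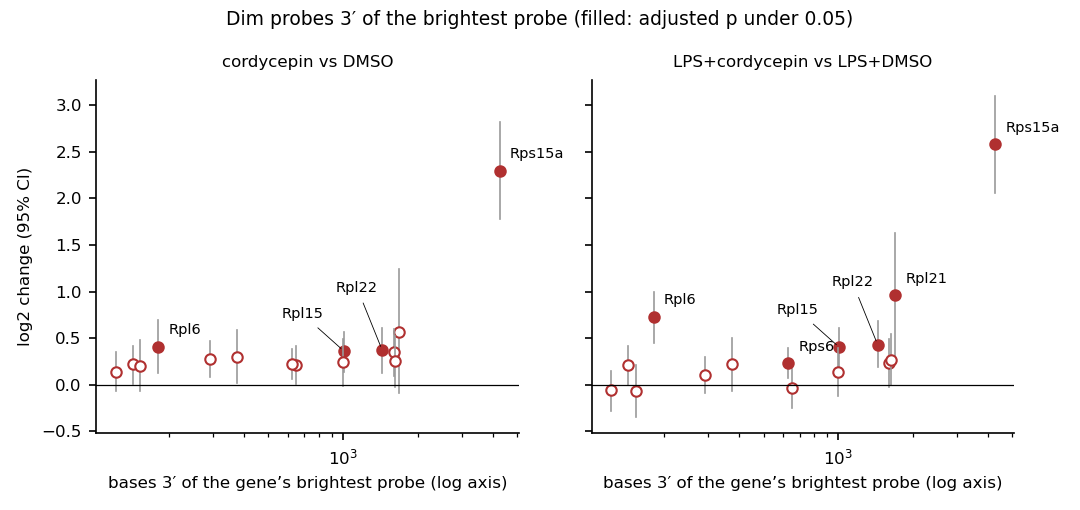
Log2 change with cordycepin (y axis, with 95% confidence intervals) of the 15 tested dim 3′ probes against their distance from the brightest probe of the gene in bases (x axis, log scale), without LPS (left) and with LPS (right). The farthest probe, 4263 bases 3′ in Rps15a, has the highest measured change, 2.30 and 2.58, against controls mostly not above background, and the others lie between -0.07 and 0.96 with no visible order by distance.

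The 3′ probe was then set against the brightest probe of its own gene on each array. Over the 13 probes detected on all arrays, the change of this difference with cordycepin was above zero for 13 (median 0.24), and under LPS for 10 (median 0.23). Groups were free of overlap for Rpl6 under LPS (0.74). In an exact two-sided permutation test of 4 against 4 arrays this gave p = 0.0286, the smallest that design allows. None of the 26 tests was below 0.05 after adjustment, the smallest adjusted p being 0.186. With so few arrays that outcome was nearly fixed in advance, since a pass needed many tests at the smallest p. The adjusted values therefore decide nothing about these probes. The 3′ probe of Rps15a, outside these 13, passed the filter only where it was high. Its differences were 2.28 and 2.64, and their lack of overlap is no further support. The shared movement of the bright probes from array to array enters each of these differences.

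Position on the genome could not be read for every member. The dim second probe of Rps3 was lower with LPS (-0.42, adjusted p = 0.0424 by limma) and with LPS in cordycepin-treated cells (-0.45, adjusted p = 0.0488), where 4.23% of all probes were lower. Its brightest probe has no position in the files, so the pair was not placed, and that brightest probe changed by -0.08 in both comparisons. For 10 probes of 5 genes (Rpl13, Rpl36, Rps27, Rps29 and Rps4x) the files give another chromosome than RefSeq gives the gene, the brightest probe included for Rps27, Rps29 and Rps4x. Ribosomal protein genes have many near-identical processed copies in the mouse genome, and signal from such copies cannot be told apart from that of the gene on these probes.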

How the data were processed

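RNA from 16 cultures of RAW264.7 cells (4 conditions, 4 culture days) was hybridised by the authors to 1-colour Agilent mouse arrays on 2 slides, days 1 and 2 on slide 1 and days 3 and 4 on slide 2. The deposited scanner files hold processed signal intensity, background-subtracted by the authors' Feature Extraction software (version 10.10.1.1 in the submitters' processing notes, which also name limma; the file headers give another version), with raw mean and background intensity. The deposited value table holds log2 values of the authors, normalised between arrays. It correlated with the scanner values at r = 0.995 to 0.998 and was an alternative.

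Outlier spots (108 to 237 an array) were dropped, log2 processed signal was scaled to the array's 75th percentile, taken over 18147 probes that exceeded background on every array, and spots of a probe were averaged. Printed log2 signals are on this scale, shifted by a constant. Genes needed a probe well above background on all 4 arrays of a condition, and the brightest probe stood for the gene (for members, the brightest one that met the naming rule, 20 other probes being left out). Condition means were compared with limma 3.58.1 in R 4.3.3, with all 16 arrays in 1 fit and Benjamini-Hochberg adjustment over 15877 genes, at an adjusted p of 0.05. A difference counts as higher or lower only past that threshold. Between 37.1% and 51.2% of the 59305 spots of an array were well above background (at most 43.9% on slide 1, at least 45.8% on slide 2) and none was saturated. The number of arrays limits the precision. The fit was tested on simulated data with independent arrays. These had no day, slide or shared array effect, so that test did not cover such effects. Replicates are cultures of 1 line on different days, and p-values measure the spread between them.

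Members and lists were chosen with earlier results of these data known. Genes named in the text were the largest rise and fall per comparison, those called, and members of fixed lists (stalk, 5S particle, paralogues and parents, reference genes, early assembly and surface proteins); the 3′ probes were chosen after their values were seen. The series' design text gives each replicate its own day, which pairs the arrays. Deviations from the condition means correlated at a mean r of 0.20 (-0.06 to 0.44) for arrays of the same day, 0.18 for another day on the same slide and -0.19 across slides. Alternatives were other scalings, background treatments, filters, probe rules and variance models, the day or slide as a block, the methods' t-test and leaving out arrays or days. Symbols were updated through RefSeq (GRCm38.p6) for names only; all 82 member symbols matched. A few genes are not reported here.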

Additional observations from a re-analysis of the deposited data

Results flagged for a closer look

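Within conditions, 180 groups of 4 arrays were screened for a value far from the other 3 by Dixon's ratio, and 11 exceeded its 95% critical value, which chance does for about 1 in 20 groups. On the brightest probes, the low values were those of Rpl23 (17.97), Rpl41 (18.07) and Rps6 (17.61) in LPS+DMSO replicate 4, Rpl7 (17.21) and Rpsa (17.54) in LPS+cordycepin replicate 2, and Rpl7l1 (9.08) in cordycepin replicate 3. The high values were those of Rpl5 (16.50) in DMSO replicate 2 and Rplp1 (18.01) in LPS+cordycepin replicate 1. On each of these arrays the family's median deviation had the same sign (-0.15, -0.11, -0.05, 0.17 and 0.11 in the order given). Among 3′ probes, Rpl23 was low (13.26) in cordycepin replicate 1, Rpl6 low (6.75) in LPS+DMSO replicate 2 and Rpl15 high (11.26) in DMSO replicate 3.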

How the results depend on the processing

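The count of 0 members called, higher or lower, held in every comparison under all alternatives tried for the brightest probes, the replicate block and the slide block included, save 1 call (Rpl7l1 higher with LPS) without cordycepin replicate 3. Leaving out arrays or days gave 0 to 1 such calls with LPS and 0 in the other comparisons. Of 165 member probes taken on their own, 2 were called lower with LPS and 4 higher with cordycepin. Of all probes, 9.36% and 9.54% were. With cordycepin under LPS 6 were higher, and 1 was lower with LPS in cordycepin-treated cells, where 12.1% and 4.23% of all probes were. Averaging a gene's probes called 1 member higher with cordycepin and 3 under LPS. No share of all genes is given for that fit, so these counts are not read as a response. Spike-in scaling moved the members' median to -0.13 for LPS, 0.09 for cordycepin, -0.13 for cordycepin under LPS, -0.35 for LPS in cordycepin-treated cells and -0.22 for the interaction, and the median of all genes to -0.15, 0.10, -0.10, -0.35 and -0.19, so that relative to all genes the members differed by 0.02, -0.01, -0.03, -0.01 and -0.03. Scaling to the 75th percentile over all probes moved the members' median for cordycepin under LPS to -0.13 and that of all genes to -0.09. Leaving out arrays or days gave medians between -0.10 and 0.03 for LPS, -0.03 and 0.08 for cordycepin, -0.05 and 0.04 for cordycepin under LPS, -0.14 and 0.03 for LPS in cordycepin-treated cells, and -0.13 and 0.03 for the interaction.

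The 4 of 15 dim 3′ probes higher with cordycepin became 7 with median scaling and with the replicate block, and 1 with spike-in scaling, with no filter, with scaling to the members, within slide 1 and within slide 2. The 6 of 15 under LPS became 3 with the 75th percentile over all probes and with the methods' t-test, 2 with no filter and with scaling to the members, and 1 with spike-in scaling and within slide 1. Leaving out arrays or days gave 1 to 6 and 2 to 6: the first count fell to 1 or 2 without any 1 of the 4 days, without DMSO replicate 1 or 2 and without cordycepin replicate 3 or 4, and the second to 2 or 3 without day 2, 3 or 4. The 3′ probe of Rps15a passed in all 35 fits run for each comparison. Except in the fit with no filter, the filter let it in only through conditions in which it was high. The fit of probes detected on every array left it out. The 35 fits are therefore not separate support for its change. The cause of the shifts in the counts was not tested. The counts of 15 include the probes of Rps15a and Rpl21 that the filter let in, and no share of all probes is given for the alternative fits. They show only how the calls moved with the processing. With spike-in scaling the median standard error of a gene was 0.38, against 0.14. Scaling to the members, the within-slide fits and all fits of the 3′ probes were chosen after seeing the data. The tested 3′ probes are 3.48 to 10.60 log2 units dimmer than the brightest, and those near background have the least certain changes.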
